A study of Homo sapiens with 4 samples.

Results

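Oxidative phosphorylation is the work of protein complexes in the inner mitochondrial membrane. Complexes I to IV pass electrons from NADH and succinate to oxygen and most of them pump protons, and complex V, the ATP synthase, uses the proton gradient to make ATP. Mitochondrial DNA encodes some subunits of complexes I, III, IV and V. The nucleus encodes the other subunits, all of complex II and the factors that assemble the complexes, so that transcripts from both genomes are needed in balance. Proximal tubule cells of the kidney are known for their many mitochondria and their reliance on this route.

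The members were the protein-coding genes whose symbol starts with MT-, NDUF, SDH, UQCR, ATP5 or COX followed by a digit. This rule, which uses no measured value, found 124 of the 34080 genes in the table. Mitochondrial DNA encodes 13 of them and the nucleus 111. The 13 are 7 subunits of complex I, 1 of complex III, 3 of complex IV and 2 of complex V. The 111 comprise 37 subunits of complex I, 4 of complex II, 9 of complex III, 18 of complex IV and 18 of complex V, with 21 assembly factors. The remaining 4 are the readthrough genes NDUFC2-KCTD14 and ATP5MF-PTCD1, the supercomplex factor COX7A2L and ATP5IF1, which inhibits the ATP synthase. NDUFA4 and NDUFA4L2 were counted with complex IV. Cytochrome c1 (CYC1) and cytochrome c (CYCS) fall outside the rule by their symbols and are given further on.

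The samples were HK-2 cells, an established line of human proximal tubule cells, that carry a Tet-On cassette for HA-tagged PRCC-TFE3, a fusion of the PRCC protein with the transcription factor TFE3 found in a form of renal cell carcinoma. Cells were kept for 24 h with 0.2 microg/ml doxycycline, named Doxy(+), or without it, named Doxy(-), with 2 libraries of polyadenylated RNA per group. Both groups carry the cassette and grew in the same medium with tetracycline-free serum. The titles give the libraries of each group the same numbers, and do not state whether same-numbered libraries form a pair. Whether the line is a single clone, and whether the libraries of a group came from separate cultures, is not given in the sources used here, so the p-values measure only the spread between these libraries, and a doxycycline effect and a PRCC-TFE3 effect cannot be told apart.

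The counts on genes came to between 12654233 and 15012743 per library, and TFE3 was the higher in both libraries labelled Doxy(+), with 66.8 and 69.0 CPM (counts scaled to a library total of 1000000) in Doxy(-) and 367 and 321 CPM in Doxy(+). Of 14 tubule markers examined, the renal transcription factor PAX8 stood at 564 to 604 CPM and the keratins KRT8, KRT18 and KRT19 at 158 to 673 CPM. Of the genes of the brush border and of uptake that mark the proximal tubule in the kidney, LRP2, AQP1 and ANPEP were at 0 to 0.233 CPM, CUBN, SLC34A1 and SLC5A2 at no more than 4.06 CPM, MME at 4.71 to 12.6 CPM and GGT1 at 68.6 to 85.9 CPM. Of the 11 tubule markers with enough counts to be tested, 5 were lower and 2, MME and GGT1, higher in Doxy(+) at an edgeR adjusted p under 0.05, which is 63.6% beside 19.3% of all genes. Among 9 markers of other cells, CDH5, KDR and HBB were at 0 in every library and the others at no more than 3.29 CPM, apart from LUM at 160 to 184 CPM and CD68 at 144 and 149 CPM in Doxy(-) against 190 and 189 CPM in Doxy(+). The part of these markers in the results was not tested. Within a bulk library, more transcripts per cell cannot be told apart from more cells that carry them.

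To see how much of the transcriptome the members make up, their share of all gene counts was taken first. The 13 mitochondrial members held 4.12% of the gene counts of Doxy(-) 1 and 4.63% of those of Doxy(-) 2, against 4.23% and 4.40% for Doxy(+) 1 and 2, so the Doxy(+) libraries lay between the Doxy(-) libraries. The 111 nuclear members held 0.726% and 0.685% in Doxy(-), and 0.761% and 0.753% in Doxy(+). Here both Doxy(+) libraries lay above both Doxy(-) libraries, by 0.0511 percentage points between the group means, against a pooled SD of 0.0208 points. These shares do not include the scaling between libraries (TMM) that the CPM values carry. Without TMM the median log2 fold change of all genes tested was 0.05. With TMM the summed nuclear members had a log2 ratio of the means of 0.05, with both Doxy(+) libraries still above. With 2 libraries against 2 an exact permutation test cannot go below p = 0.333, so no test was made of these shares. Doxy(-) 2 had the highest mitochondrial and the lowest nuclear share of the 4 libraries.

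**Figure D1:**
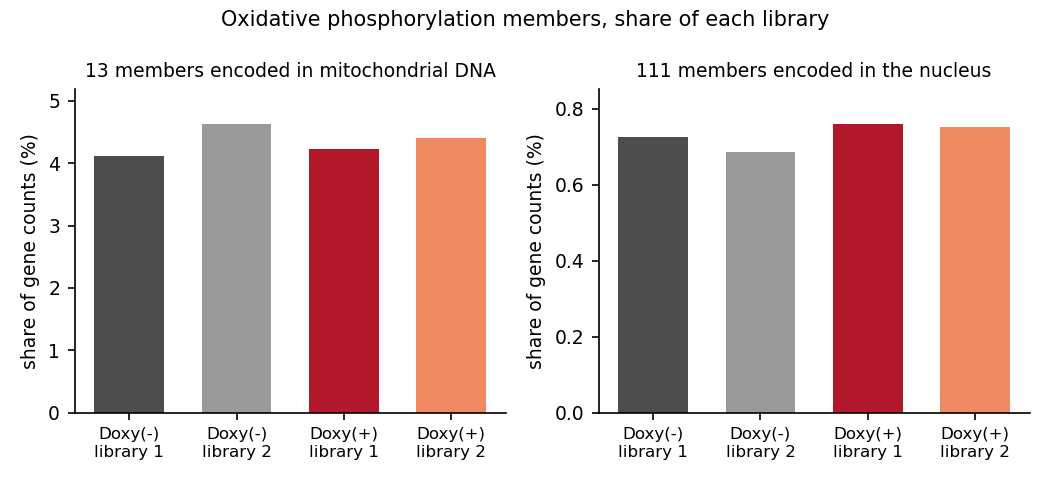
Share of the gene counts of each library (%, from 0) taken by the 13 members encoded in mitochondrial DNA (left) and by the 111 nuclear members (right), one bar per library. On the left the Doxy(+) bars, 4.23% and 4.40%, lie between the Doxy(-) bars, 4.12% and 4.63%. On the right both Doxy(+) bars, 0.761% and 0.753%, are above both Doxy(-) bars. The shares are without TMM scaling.

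On a scale that allows for transcript length, the genomes were far apart. TPM is abundance per transcript length scaled to a total of 1000000. In these libraries of polyadenylated RNA, a mean TPM over the 4 libraries of 1390 for MT-ND6 was the lowest among the mitochondrial members. The highest was 11028 for MT-CO2. How fully each transcript was captured was not tested. The nuclear members had a median of 99.8 TPM, and their highest was COX7C at 723 TPM, below every mitochondrial member. Summed within a complex, mitochondrial over nuclear subunit TPM came to 7.48 and 8.98 in Doxy(-) against 7.23 and 7.45 in Doxy(+) for complex IV. For complex I the ratio came to 5.90 and 7.17 in Doxy(-) against 5.87 and 6.46 in Doxy(+). For complex V it was 4.02 and 4.81 against 3.99 and 4.10. MT-ATP8 and MT-ATP6 of complex V share a messenger, as do MT-ND4L and MT-ND4 of complex I. The mitochondrial sums of these complexes therefore count a shared messenger more than once. Complex III, with MT-CYB as its only mitochondrial subunit, had the lowest ratio, 1.74 and 2.28 in Doxy(-) and 1.75 and 1.87 in Doxy(+). In all 4 complexes the highest ratio was that of Doxy(-) 2, and in all 4 it lay above both Doxy(+) libraries.

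Next, each member was compared between the groups with edgeR's quasi-likelihood test, fitted over 13569 genes. Of the members, 117 had enough counts to be tested, namely all 13 mitochondrial and 104 nuclear ones. COX4I2, COX7B2 and COX8C had no counts and UQCRHL next to none, while COX6B2, COX7A1 and ATP5MGL had too few, and these 7 were not tested. At an adjusted p under 0.05, 5 nuclear members were higher and 1 was lower in Doxy(+), which is 5.13% of the 117. Over all genes tested the same limit called 19.3% of genes, 9.76% higher and 9.53% lower. None of the 117 passed both limits of the study, an adjusted p under 0.05 and a log2 fold change over 1 in size, where 1.98% of all genes did. At an unadjusted p under 0.05 there were 19 higher and 2 lower members, beside 16.8% and 16.6% of all genes (19 of 117 is 16.2%). DESeq2 called 1 member, UQCRFS1, higher, also under the size limit, and 5.69% of all genes higher and 5.73% lower. For 111 of the 117 the log2 fold change was under 0.3 in size.

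**Figure D2:**
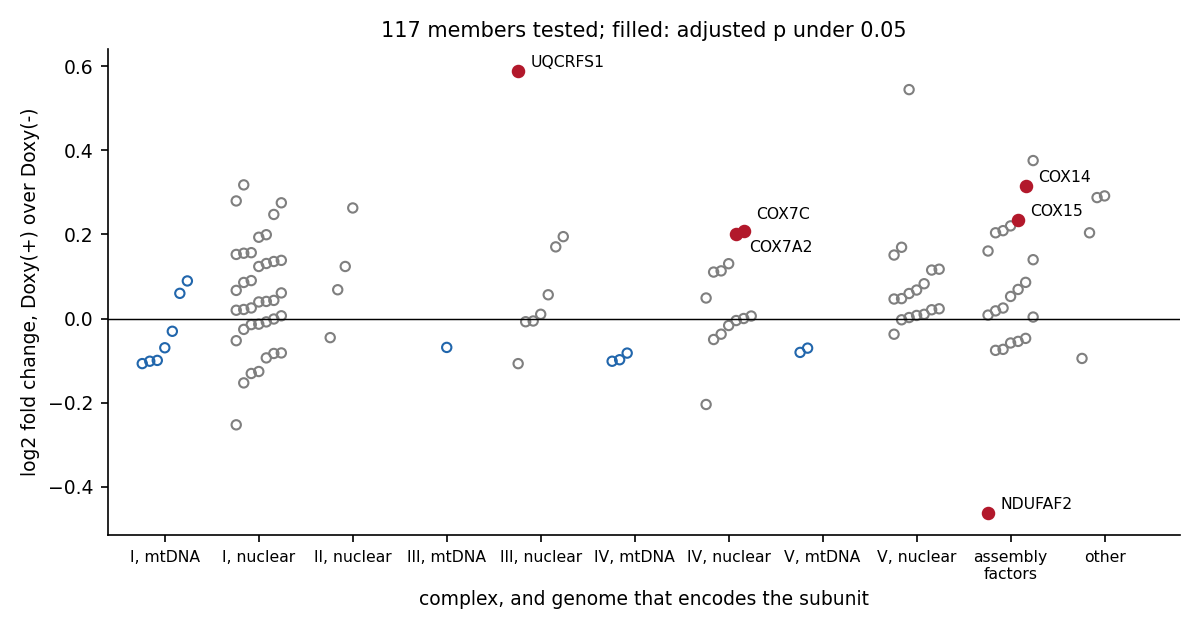
Log2 fold change, Doxy(+) over Doxy(-), of the 117 members tested, one point per gene, by complex and by the genome that encodes the subunit. Filled points are the 6 members with an edgeR adjusted p under 0.05, from 0.59 for UQCRFS1 to -0.46 for NDUFAF2, and open blue points are the mitochondrial members, which span -0.11 to 0.09.

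UQCRFS1 encodes the Rieske iron-sulfur protein of complex III, which takes electrons from ubiquinol. Its gene lies on chromosome 19, from 29205320 to 29213151 on the minus strand in GENCODE release 44 on hg38. Its level was 88.7 and 73.9 CPM in Doxy(-) 1 and 2 and 118 and 126 CPM in Doxy(+) 1 and 2. Both Doxy(+) libraries were above both Doxy(-) libraries, which held for 31.1% of all genes tested, while the groups of 61.1% did not overlap in either direction. The group means were 81.3 ± 10.5 and 122 ± 5.73 CPM (SD, n = 2 each). The log2 fold change was 0.59 (SE 0.09), with a 95% interval of 0.37 to 0.81 and an edgeR adjusted p of 0.0075. It ranged from 0.46 without Doxy(-) 2 to 0.72 without Doxy(-) 1, the spread of the Doxy(-) libraries being the wider, and was called in each of these fits. The call was lost, at an adjusted p of 0.0595 in edgeR, when transcript identifiers that matched no gene entered the fit as further features, and in that fit none of the 117 members was called, beside 1441 of 19901 features. The other 7 tested nuclear subunits of complex III gave no call, with log2 fold changes from -0.11 for UQCRC1 to 0.20 for UQCRQ.

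Of the other 4 members that were higher, all belong to complex IV, cytochrome c oxidase, which reduces oxygen to water. COX14 helps to handle newly made MT-CO1 during assembly, and stood at 23.4 and 22.6 CPM in Doxy(-) against 29.1 and 28.2 CPM in Doxy(+), a log2 difference of 0.32 (SE 0.07, adjusted p 0.0342 in edgeR). COX15, which makes the heme A of the enzyme, was at 52.1 and 55.4 CPM in Doxy(-) against 64.4 and 62.1 CPM in Doxy(+). The log2 fold change was 0.23 (SE 0.06, adjusted p 0.0424 in edgeR), and its exons overlap those of ENTPD7 on the other strand, so reads of the pair are separated only if the counting used the strand, which is not stated. COX7C and COX7A2 are small structural subunits. COX7C had 146 and 133 CPM in Doxy(-) against 158 and 163 CPM in Doxy(+), a log2 difference of 0.21 (SE 0.05, adjusted p 0.0453 in edgeR). COX7A2 had 93.4 and 88.3 CPM in Doxy(-) against 102 and 107 CPM in Doxy(+), a log2 difference of 0.20 (SE 0.05, adjusted p 0.0455 in edgeR). In each of these 4 genes both Doxy(+) libraries were above both Doxy(-) libraries. The calls were close to the limit, and COX14 was not called when any 1 library was left out (edgeR adjusted p from 0.0606 to 0.17). COX15 kept its call only without Doxy(-) 2, and COX7C and COX7A2 only without Doxy(-) 1.

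NDUFAF2, an assembly factor that binds a late intermediate of complex I, was the member that fell. It stood at 17.4 and 17.6 CPM in Doxy(-) against 12.3 and 13.2 CPM in Doxy(+), with no overlap between the groups. The log2 fold change was -0.46 (SE 0.10, 95% interval -0.70 to -0.22, adjusted p 0.0248 in edgeR). It kept this direction without any 1 library, from -0.52 to -0.41, but its adjusted p in edgeR then lay between 0.0539 and 0.116. The other 7 complex I assembly factors, NDUFAF1 and NDUFAF3 to NDUFAF8, gave no call, with log2 fold changes from -0.06 for NDUFAF8 to 0.21 for NDUFAF5.

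**Figure D3:**
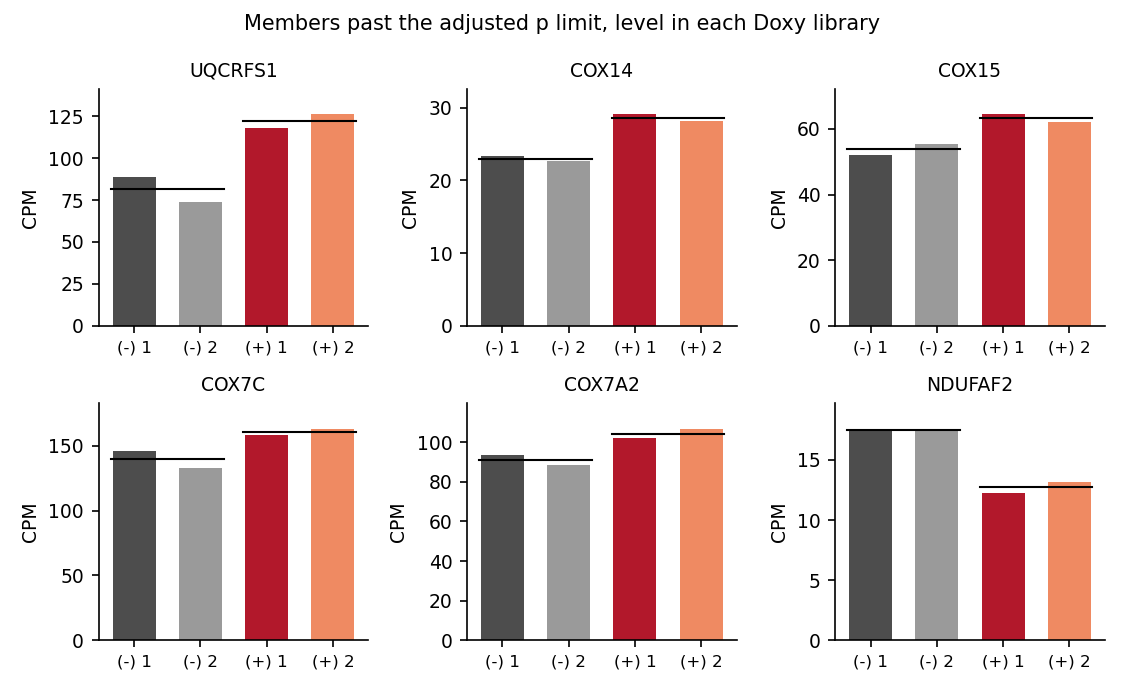
Level of the 6 called members in each library, in CPM from 0, with Doxy(-) bars in grey, Doxy(+) bars in red and orange, and a line at each group mean. UQCRFS1, COX14, COX15, COX7C and COX7A2 are higher in both Doxy(+) libraries, and NDUFAF2 is lower, at 12.3 and 13.2 CPM against 17.4 and 17.6 CPM.

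TFE3 and its relatives bind DNA at the letters CACGTG, and the members' promoters were searched for them on both strands. Promoter sequences from RefSeq, on GRCh38.p14, run from 250 bases before to 50 bases after an annotated start, and 90 of the 111 nuclear members had at least 1. CACGTG was present in 9 of their 112 promoters (8.04%), and in 7.26% of all 35116 promoters. The 9 genes are ATP5MC1, ATP5ME, ATP5PB, COX14, NDUFA11, NDUFA7, NDUFAF5, NDUFS7 and UQCR11, of which COX14 was called. The variant TCATGTG was in the promoter of COX7B2 alone among the members, a gene at 0 counts, and in 2.92% of all promoters. CGCATGC, the centre of the longer motif of the nuclear respiratory factor NRF1, was in 21 of the members' 112 promoters (18.8%), from 19 genes, and in 3.91% of all. None of the 19 was called, and their log2 fold changes ran from -0.25 for NDUFA6 to 0.54 for ATP5MC2. A match is a description of the letters, not of binding. The promoters of the members with the largest rise and of the called member with the motif are shown 5′ to 3′ on the gene's strand, with CACGTG in capitals where present. The COX14 motif starts 53 bases before the annotated start, and the UQCRFS1 window, chr19:29213102-29213401 on the minus strand, does not contain these letters. The COX14 window is chr12:50111986-50112285 on the plus strand.
UQCRFS1: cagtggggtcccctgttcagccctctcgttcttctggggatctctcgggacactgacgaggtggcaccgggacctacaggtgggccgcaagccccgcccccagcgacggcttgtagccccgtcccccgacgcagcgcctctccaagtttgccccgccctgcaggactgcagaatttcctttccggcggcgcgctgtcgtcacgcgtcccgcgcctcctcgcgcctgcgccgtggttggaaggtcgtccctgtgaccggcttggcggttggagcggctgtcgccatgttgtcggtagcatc
COX14: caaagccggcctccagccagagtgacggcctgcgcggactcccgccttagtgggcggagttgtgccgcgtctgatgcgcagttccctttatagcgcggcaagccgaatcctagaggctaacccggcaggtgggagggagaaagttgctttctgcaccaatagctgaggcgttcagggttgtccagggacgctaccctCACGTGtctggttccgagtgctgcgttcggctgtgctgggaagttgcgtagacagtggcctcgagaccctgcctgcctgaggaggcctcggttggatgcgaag

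Complex I takes electrons from NADH and has the most members. None of its 37 nuclear subunits was called by edgeR's adjusted p or by DESeq2, while limma on log2(TPM + 1) called NDUFB1 higher. In edgeR there were 7 higher and 1 lower at an unadjusted p under 0.05, a limit that 16.8% and 16.6% of all genes passed. The nearest was NDUFS7, a core subunit that holds an iron-sulfur cluster, at 39.4 and 34.7 CPM in Doxy(-) against 48.6 and 43.5 CPM in Doxy(+), a log2 difference of 0.32 (SE 0.09, adjusted p 0.0559 in edgeR). The accessory subunits NDUFB2, NDUFB6 and NDUFB8 had log2 fold changes of 0.25, 0.28 and 0.16, and none passed the test. At the other end were NDUFA12 at -0.15, NDUFS6 at -0.13 and NDUFA10 at -0.13. In 15 of the 37 both Doxy(+) libraries were above both Doxy(-) libraries and in 6 below, where 31.1% and 30.1% of all genes were. The median log2 fold change of the 37 was 0.04, beside 0.00 over all genes tested.

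Complex II, succinate dehydrogenase, also works in the citric acid cycle and has no mitochondrially encoded subunit. SDHD, a membrane anchor, was at 54.5 and 46.9 CPM in Doxy(-) against 58.8 and 62.7 CPM in Doxy(+), a log2 difference of 0.26 (SE 0.09, adjusted p 0.0842 in edgeR). SDHB, the iron-sulfur subunit, was at 80.1 CPM in each Doxy(-) library and at 87.0 and 87.6 CPM in Doxy(+), a log2 difference of 0.12 (SE 0.05, adjusted p 0.119 in edgeR). In both genes the Doxy(+) libraries were the higher ones, and neither gene passed the test. The other membrane anchor, SDHC, and the flavoprotein SDHA overlapped between the groups, with log2 fold changes of 0.07 and -0.05. SDHA shares sequence with pseudogenes that received between 31.9% and 32.9% of the summed counts of the gene and its pseudogenes in the 4 libraries, so its level is less certain. SDHAF2, which attaches the flavin to SDHA, had a log2 fold change of 0.38 that rested on a wide spread, with 23.1 and 16.5 CPM in Doxy(-) against 28.6 and 22.7 CPM in Doxy(+) (SE 0.18, adjusted p 0.217 in edgeR).

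Complex IV holds subunits that exist as tissue variants. Of each set in these cells the widely expressed form made up nearly all transcripts. COX4I1 held 100% of the TPM of the COX4I pair in every library, COX8A all of COX8 and COX7B all of COX7B with COX7B2. COX6A1 held between 98.5% and 98.8% against the muscle form COX6A2, and COX6B1 over 99.8% against COX6B2. COX7A2 held between 99.6% and 99.9% against the muscle form COX7A1. NDUFA4 held between 99.1% and 99.4% against NDUFA4L2, a gene known to respond to low oxygen, which stayed at 0.931 to 1.55 CPM. No variant took over in Doxy(+), and the log2 fold changes of COX4I1 (0.00), COX6A1 (-0.02), COX6B1 (-0.05), COX8A (0.00) and COX7B (0.01) did not pass the test, nor did that of COX6C (0.11). COX7A2L, which joins complexes III and IV, lay just outside the limit at 89.4 and 82.8 CPM in Doxy(-) against 101 and 97.7 CPM in Doxy(+), a log2 difference of 0.20 (SE 0.06, adjusted p 0.0522 in edgeR).

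Complex V gave no call among its 17 tested nuclear subunits by edgeR's adjusted p, DESeq2 or limma, with 2 higher at an unadjusted p under 0.05, beside 16.8% of all genes. The log2 fold change was above 0 in 15 of the 17, with a median of 0.05, where 50.1% of all genes were above 0. Without Doxy(-) 2 it was above 0 in 8 of the 17, with a median of -0.002, beside 50.7% of all genes. Without Doxy(-) 1 it was above 0 in 16 of the 17, with a median of 0.10, beside 50.2% of all genes. Subunit c, the ring that turns with the proton flow, is encoded by 3 genes for the same mature protein. ATP5MC3 held between 58.7% and 61.6% of their TPM, ATP5MC1 between 36.9% and 39.4%, and ATP5MC2 between 1.08% and 2.07%. ATP5MC3 was at 126 and 117 CPM in Doxy(-) against 139 and 134 CPM in Doxy(+), a log2 difference of 0.17 (SE 0.05, adjusted p 0.0687 in edgeR). ATP5MC1 and ATP5MC2 had log2 fold changes of 0.15 and 0.54, the latter from 2.44 and 3.38 CPM to 4.15 and 4.42 CPM, and neither passed the test. The inhibitor ATP5IF1 was at 104 and 110 CPM in Doxy(-) against 98.6 and 102 CPM in Doxy(+), a log2 difference of -0.09 (SE 0.05, adjusted p 0.254 in edgeR).

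The mitochondrial members were then examined gene by gene. Human mitochondrial DNA is transcribed from both strands into long precursors that are cut into single messengers, so that the genes of a strand share long transcripts. MT-ND6 is the only member read from the minus strand of the 16569 bases. Its reads are separated from those of the other strand's long transcripts only if the counting used the strand, which is not stated. The overlapping genes MT-ATP8 and MT-ATP6 share 46 bases, and MT-ND4L and MT-ND4 share 7, and each pair lies on a common messenger, so reads across the shared bases can be given to either gene. The joints are shown from hg38 on the plus strand, 5′ to 3′, with the shared bases in capitals and 15 bases on each side, at chrM:8512-8587 and chrM:10745-10781.
MT-ATP8 and MT-ATP6: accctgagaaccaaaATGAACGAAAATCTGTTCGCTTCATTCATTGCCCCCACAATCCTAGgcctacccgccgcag
MT-ND4L and MT-ND4: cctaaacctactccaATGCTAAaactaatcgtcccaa

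None of the 13 mitochondrial members was called by edgeR, DESeq2 or limma on log2 TPM, and none had an unadjusted p under 0.05 in edgeR. MT-CO1, the catalytic core of complex IV and the most counted member, was the nearest, at 10389 and 11302 CPM in Doxy(-) against 10136 and 10352 CPM in Doxy(+). The log2 fold change was -0.08 (SE 0.04, 95% interval -0.18 to 0.02, adjusted p 0.229 in edgeR). MT-CO1 was the only one of the 13 whose groups did not overlap, with Doxy(+) below, where 30.1% of all genes tested were. MT-CO2 and MT-CO3 stood at -0.10 each, and MT-CYB, the cytochrome b of complex III, at -0.07 on the log2 scale. MT-ATP6 and MT-ATP8 of complex V stood at -0.07 and -0.08. In complex I, MT-ND4L, MT-ND6 and MT-ND4 were at -0.11, -0.10 and -0.10, MT-ND5 at -0.07 and MT-ND2 at -0.03. MT-ND1 and MT-ND3 were the ones above 0, at 0.06 and 0.09. The median of the 13 was -0.08 and that of the 104 nuclear members tested 0.05, and 2 of 13 against 72 of 104 were above 0, with 50.1% of all genes.

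The difference between the genomes rested on the Doxy(-) libraries. All 13 mitochondrial members had a higher CPM in Doxy(-) 2 than in Doxy(-) 1, by 0.12 to 0.30 on the log2 scale with a median of 0.22. The median of the 104 tested nuclear members between the same libraries was -0.07, and that of all genes 0.00. Between Doxy(+) 1 and 2 the medians were 0.08, -0.02 and 0.00. All 13 mitochondrial members were also higher in Doxy(+) 2 than in Doxy(+) 1, by 0.01 to 0.15. Without Doxy(-) 1, 11 of the 13 mitochondrial members lay from -0.14 for MT-ATP6 and MT-ND2 to -0.24 for MT-ND4L. In that fit MT-ND1 was at -0.05 and MT-ND3 at 0.02. Without Doxy(-) 2, 9 of the 13 were above 0, with MT-ND1 and MT-ND3 the highest at 0.18 and 0.16. Each of these fits keeps 1 Doxy(-) library, so its p-values rest on the spread of the Doxy(+) libraries and are not given here. The median of the 13 moved from -0.18 without Doxy(-) 1 to 0.04 without Doxy(-) 2. The nuclear members moved the opposite way, with 79 of 105 above 0 and 13 called higher without Doxy(-) 1, and 56 of 105 above 0 and 2 called higher without Doxy(-) 2. Of all genes these fits called 8.83% higher and 9.37% lower without Doxy(-) 1, and 8.63% higher and 8.75% lower without Doxy(-) 2. No direction of the mitochondrial members as a group held with each Doxy(-) library left out in turn.

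**Figure D4:**
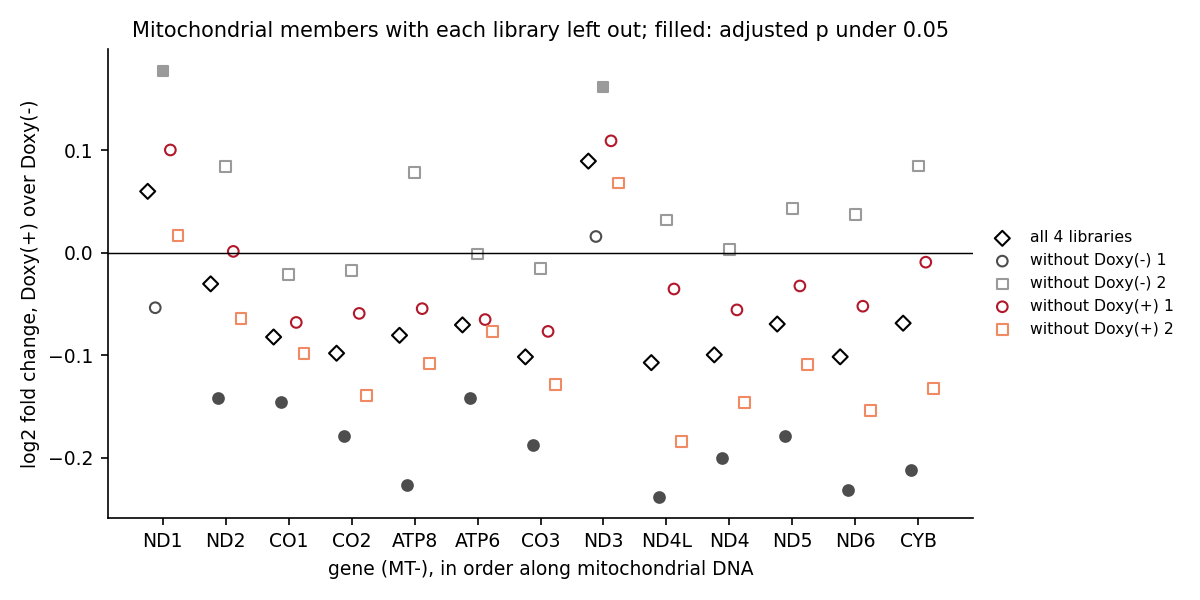
Log2 fold change, Doxy(+) over Doxy(-), of the 13 mitochondrial members in order along mitochondrial DNA, with all 4 libraries (diamonds) and with each library left out. Filled points have an edgeR adjusted p under 0.05. With a library left out, that p rests on the spread of the group that keeps 2 libraries. Without Doxy(-) 1, 11 genes lie from -0.14 to -0.24, and without Doxy(-) 2, MT-ND1 and MT-ND3 lie at 0.18 and 0.16.

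To set aside how much mitochondrial RNA a library held, each gene was also given as a share of the counts of the 13, a measure chosen after the values had been seen. MT-ND3 held 1.82% and 1.78% in Doxy(-) and 2.02% and 1.99% in Doxy(+), a log2 ratio of the mean shares of 0.16. MT-ND1 held 5.34% and 5.52% in Doxy(-) and 5.90% and 5.99% in Doxy(+), a log2 ratio of 0.13. In both genes the gap between the groups was wider than the range within either group. MT-ND2 was also higher in both Doxy(+) libraries, at 9.83% and 9.86% against 9.42% and 9.71%, with a log2 ratio of 0.04. MT-CO2, MT-CO3 and MT-ND4 were lower in both Doxy(+) libraries, each with a log2 ratio of -0.03, and the other 7 overlapped. In CPM, the groups of 61.1% of all genes tested did not overlap in either direction. With the counts of pseudogenes of mitochondrial origin added, MT-ND1 and MT-ND3 kept ratios of 0.13 and 0.16. These pseudogenes received up to 13.8% of the summed counts for MT-ATP6 and up to 9.42% for MT-CO3, and no more than 1.02% for MT-ND1 and 0.0081% for MT-ND3. Shares of a fixed sum are not independent, and no test was made.

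**Figure D5:**
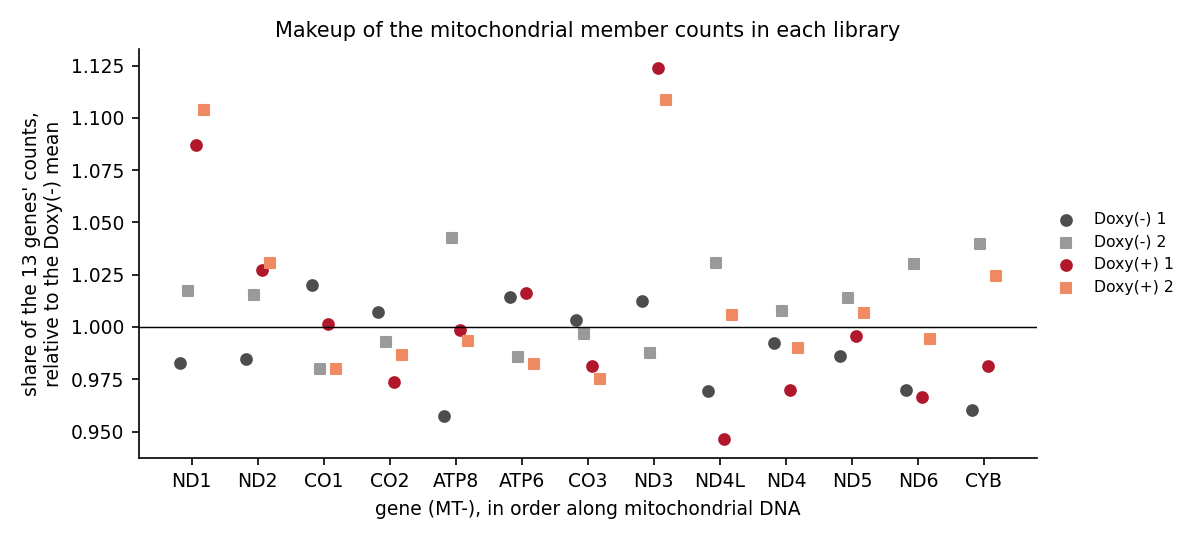
Share of the counts of the 13 mitochondrial members held by each gene, divided by its Doxy(-) mean (1 on the axis, which does not start at 0), one point per library, in order along mitochondrial DNA. MT-ND1 and MT-ND3 stand above the Doxy(-) points in both Doxy(+) libraries, with shares of 5.90% and 5.99% for MT-ND1 and 2.02% and 1.99% for MT-ND3.

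By complex, the summed nuclear subunits stood at 743.9 to 772 CPM in Doxy(-) and 801 to 825 CPM in Doxy(+) for complex III, a log2 ratio of the means of 0.10, of which UQCRFS1 is a part. For complex II they stood at 343 and 329.7 CPM in Doxy(-) against 355 and 352 CPM in Doxy(+), a log2 ratio of 0.07. For complex IV they stood at 1221 and 1137 CPM in Doxy(-) against 1222 and 1237 CPM in Doxy(+), a log2 ratio of 0.06, where Doxy(+) 1 exceeded Doxy(-) 1 by less than 1 CPM. In CPM, both Doxy(+) libraries were above both Doxy(-) libraries in these 3 complexes. Those of complexes I and V overlapped, with log2 ratios of 0.04 and 0.03. On the TPM scale this split differed. There complex II overlapped, at 561 and 518 in Doxy(-) against 584 and 553 in Doxy(+), and complexes I and V did not. Their TPM sums were 4888 and 4645 in Doxy(-) against 5176 and 4981 in Doxy(+) for I, and 4088 and 3905 against 4284 and 4244 for V. The summed mitochondrial subunits overlapped in all 4 complexes, with log2 ratios in CPM of -0.05 for I, -0.07 for III, -0.09 for IV and -0.07 for V. Without Doxy(-) 2 the log2 ratios of the nuclear subunits were 0.01 for complexes I and IV, 0.04 for II, 0.07 for III and -0.01 for V, and those of the mitochondrial subunits 0.07 for I, 0.09 for III, -0.02 for IV and 0.01 for V.

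Genes of the pathway outside the symbol rule were examined last. Of 42 further assembly factors, all tested, 5 were higher and 1 was lower in Doxy(+) (14.3%, beside 19.3% of all genes), with a median log2 fold change of 0.10. TMEM126B, of the complex I assembly machinery, was at 23.6 and 23.0 CPM in Doxy(-) against 33.6 and 34.3 CPM in Doxy(+), a log2 difference of 0.54 (SE 0.07, adjusted p 0.00418 in edgeR). PET117, of complex IV assembly, was at 13.7 and 13.04 CPM in Doxy(-) against 21.0 and 20.9 CPM in Doxy(+), a log2 difference of 0.65 (SE 0.09, adjusted p 0.006 in edgeR). HIGD2A, COA6 and UQCC5 were the other 3 that rose, by 0.33, 0.46 and 0.50. BCS1L, the chaperone that inserts the UQCRFS1 protein into complex III, fell from 30.4 and 29.3 CPM to 21.9 CPM in each Doxy(+) library, a log2 difference of -0.45 (SE 0.07, adjusted p 0.0103 in edgeR). TMEM126B and PET117 were called without any 1 of the libraries and by DESeq2. BCS1L was not called without Doxy(+) 1 or without Doxy(+) 2 (adjusted p 0.0615 and 0.0582 in edgeR) or by DESeq2, and HIGD2A, COA6 and UQCC5 were called in 1, 2 and 1 of the 4 fits on 3 libraries, and none of these 3 by DESeq2.

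Of 26 genes that copy, transcribe or process mitochondrial DNA and RNA, 1 was higher and 2 were lower (11.5%, beside 19.3% of all genes), with a median of 0.02. TWNK, the helicase that replicates mitochondrial DNA, was at 47.9 and 41.6 CPM in Doxy(-) against 33.0 and 33.8 CPM in Doxy(+), a log2 difference of -0.42 (SE 0.08, adjusted p 0.0192 in edgeR). FASTK, whose mitochondrial form is known to be needed for MT-ND6 RNA, was at 52.6 and 48.6 CPM in Doxy(-) against 40.3 and 42.2 CPM in Doxy(+), a log2 difference of -0.29 (SE 0.07, adjusted p 0.0283 in edgeR). FASTKD1, a relative of FASTK known to act on the level of MT-ND3 RNA, was at 26.2 and 26.04 CPM in Doxy(-) against 31.5 and 32.8 CPM in Doxy(+), a log2 difference of 0.30 (SE 0.07, adjusted p 0.0316 in edgeR). None of the 3 was called in every fit that left out a library. TWNK was called in 2 of the 4 fits (those without a Doxy(-) library), FASTK in 1 (without Doxy(-) 2) and FASTKD1 in 0, with an adjusted p in edgeR from 0.0646 to 0.171. DESeq2 called TWNK (adjusted p 0.0484) and neither FASTK nor FASTKD1. TFAM, which packages mitochondrial DNA and starts its transcription, and the polymerase POLRMT did not pass the test, at -0.11 and -0.18. Neither did CYC1 and CYCS, at -0.06 and -0.05.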

How the data were processed

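Polyadenylated RNA of 2 Doxy(-) and 2 Doxy(+) libraries was measured. The study's methods give single-end 75 nt reads, Trim Galore 0.6.6, STAR 2.7.9a on hg38 and RSEM, whereas the deposited tables have kallisto's columns. They hold estimated counts, made by the authors' quantifier and not normalized, and TPM scaled by it, over 180253 Ensembl transcripts. Its version, the Ensembl release and the strand setting are not given in the sources used here. Identifiers were matched to GENCODE release 44 (83.6%), and those unmatched, 9.66% to 9.89% of counts, were left out. Counts were summed per gene, rounded and tested over all genes with edgeR 4.0.16 (TMM, filterByExpr, glmQLFTest, group as the only term, two-sided, Benjamini-Hochberg adjustment). A count of 0 allows 3 counts, 0.204 to 0.233 CPM, which covers counting error only. On simulated data of 13382 genes the test recovered 31% of changes of 0.3 and 72% of changes of 0.6 (log2), with 3.74% false calls.

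Members and lists were chosen with earlier results of these data known, and roles came from textbook knowledge. Named were all mitochondrial members, SDH subunits, subunit variants, ATP5IF1, the 3 smallest p in each class or other list, and the 5 largest and 5 most negative changes among nuclear members of at least 10 CPM. Genes named beyond these, such as COX7A2L, HIGD2A, COA6, UQCC5, TFAM and POLRMT, those at the ends of a range and those with a motif, were chosen after their values were seen. Alternatives were RLE scaling, library totals, no filter or at least 1 CPM, DESeq2 1.42.0, limma 3.58.1 on log2(TPM + 1) and log2(TPM + 0.1), pseudogenes or identical copies added, mitochondrial members removed, a replicate block, a limit of 0.01, each library left out and, added after seeing the data, unmatched identifiers as further features.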

Additional observations from a re-analysis of the deposited data

How the results depend on the processing

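UQCRFS1 was called in 15 of 16 refits and missed the limit, at an edgeR adjusted p of 0.0595, with unmatched identifiers as further features. COX14 and NDUFAF2 were called in 10 of the 16, COX7C in 9, and COX15 and COX7A2 in 8. Against 5 higher and 1 lower nuclear members, library totals without TMM gave 12 higher (11.5% of members, beside 12.5% of all genes), the replicate block 8 (7.69% beside 9.45%), each limma fit 3 (2.88%, beside 4.73% on log2(TPM + 1)), DESeq2 1 higher and 0 lower (0.962% beside 5.69% higher), an adjusted p under 0.01 1 and 0, and the unmatched identifiers 0 and 0 (beside 3.70% and 3.54%). With a library left out the counts ran from 1 to 13 higher and from 0 to 0 lower nuclear members, from 0 to 2 higher and 0 to 11 lower mitochondrial members, and from 0 to 1 member past both limits. That one was NDUFC2-KCTD14 without Doxy(-) 1, on 1.71 CPM in the lone Doxy(-) library. Each fit with a library left out takes the spread of the lone library to be that of the other group. Its calls therefore do not measure the spread within the group that lost a library. Library totals moved the median of all genes to 0.05 and put 88 of 104 nuclear and 3 of 13 mitochondrial members above 0. With identical copies added, NDUFA3, 88.4% of whose counts lay on copies, was also called higher. Over all genes tested, same-numbered libraries did not deviate together (r = -0.01, 2 pairs). All 13 mitochondrial members, though, were higher in library 2 than in library 1 in both groups. Whether same-numbered libraries are paired cannot be settled from 2 pairs. Of the values of named genes under the alternatives, 792 stayed on their side of the limit, 31 gained and 60 lost a call, and no called value changed sign.

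Some summed levels, as log2 ratios, moved by over 1 SD of replicates on scales that leave out the TMM factors. On library totals without TMM the median log2 fold change of all genes was itself 0.05. With all estimated counts as denominator, nuclear subunits came to 0.0895 for complex I, 0.12 for II, 0.15 for III and 0.0774 for V. Assembly factors came to 0.11 on that scale. With deposited TPM the summed nuclear subunits came to 0.0915 for I and 0.0934 for V. Without single libraries they ran from 0.00974 to 0.11 for IV and from -0.0118 to 0.0716 for V, and from -0.15 to 0.00782 for the mitochondrial subunits of V. Those of I and III also turned above 0 without Doxy(-) 2, to 0.07 and 0.09. The causes were not tested. At this depth and with 2 libraries a group, changes of 0.3 were often missed on simulated data, so a member without a call is not shown to be unchanged.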
